A study of Mus musculus with 19 samples.

Results

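The cyclin D genes, the CDK inhibitor genes and a pair of p53 target genes were examined in bulk RNA-seq of mouse retinal microglia at day 3 after experimental laser-induced choroidal neovascularization (CNV d3). The 10 genes were chosen by symbol from the 27299 genes with values: Ccnd1, Ccnd2, Ccnd3, Cdkn1a, Cdkn1b, Cdkn2a, Cdkn2c, Cdkn2d, Mdm2 and Ccng1. No measured value entered the rule, but earlier results of these data were known when they were chosen. The CNV d3 group held 6 samples from retinas that had received 6 argon laser burns each, and the control group held 6 samples from unlasered mice. The labels gave both groups as C57BL/6J mice aged 8 weeks, and the methods of the study describe Cx3cr1 GFP/+ animals, in which a reporter replaces 1 copy of the fractalkine receptor gene in both groups. Cells were sorted as CD11b+ CX3CR1+ Ly6C- Ly6G- and as CD45+ according to the labels or CD45 low according to the methods. The comparison asks how lasering and the following days changed the transcripts of genes that gate entry into the cell cycle, and the labels do not say whether samples came from separate animals, so p-values measure the spread between these samples only. In bulk RNA, a change in the mix of cells and a change of RNA within each cell cannot be told apart.

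Cyclins D1, D2 and D3 bind the kinases CDK4 and CDK6 and start the phosphorylation of the retinoblastoma protein, which releases E2F factors and lets a cell leave G1. The INK4 proteins block CDK4 and CDK6 directly, whereas the Cip/Kip proteins p21 and p27 act on cyclin-CDK complexes, above all on those holding CDK2. The transcription factor p53 switches on Cdkn1a, Mdm2 and Ccng1 after damage and other stress, and MDM2 in turn marks p53 for destruction. Microglia renew slowly in the healthy retina and can multiply after injury.

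A pair of the p53 target genes, Cdkn1a and Ccng1, carry a match to the p53 consensus, a pair of adjoining decamers, before an annotated start site, and these stretches are shown because both genes changed after laser. The sequences come from the RefSeq promoter table (GRCm38.p6), are written 5′ to 3′ on the gene's strand, and show in capitals the 20 bases of the element, of which 19 fit the consensus in each.
Cdkn1a (chr17:29090908-29090967, plus strand): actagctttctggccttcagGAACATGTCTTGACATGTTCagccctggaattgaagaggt
Ccng1 (chr11:40755442-40755501, minus strand): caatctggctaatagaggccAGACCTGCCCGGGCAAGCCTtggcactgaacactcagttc
The Cdkn1a element lies 51 to 32 bases before the upstream one of 2 start sites in the table, and the window of the downstream start held no match. The Ccng1 element lies 195 to 176 bases before its start site. A pair of decamers without spacer and with at most 1 base off was found in 29 of 32851 promoter windows of 300 bases (0.0883%), and 2 of the 12 windows of the 8 genes with a window held one. In the Cdkn1a element the shorter half-site letters CATGTC occur on each strand, and CATGTC or CATGCC on either strand was present in 19.97% of all windows. This search was chosen after the data had been seen, and a match is a description of letters, not of binding. Cdkn1a and Ccng1 were included as p53 targets, so the share of windows with a match is no result of these data. The Mdm2 window held no such pair of decamers, and bases outside the windows were not searched.

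For the inhibitor genes with the steepest rise among those called, a window from 250 bases before to 50 bases after the start is given, with the GC box letters GGGCGG, on either strand, in capitals.
Cdkn2c (chr4:109666707-109667006, minus strand): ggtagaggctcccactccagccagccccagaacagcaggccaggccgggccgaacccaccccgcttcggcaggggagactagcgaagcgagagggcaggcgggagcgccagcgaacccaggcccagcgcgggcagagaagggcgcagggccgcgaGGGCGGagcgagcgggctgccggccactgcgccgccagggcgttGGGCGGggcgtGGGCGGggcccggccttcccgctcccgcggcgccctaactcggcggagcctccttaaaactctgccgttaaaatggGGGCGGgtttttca
Cdkn2d (chr9:21291160-21291459, minus strand): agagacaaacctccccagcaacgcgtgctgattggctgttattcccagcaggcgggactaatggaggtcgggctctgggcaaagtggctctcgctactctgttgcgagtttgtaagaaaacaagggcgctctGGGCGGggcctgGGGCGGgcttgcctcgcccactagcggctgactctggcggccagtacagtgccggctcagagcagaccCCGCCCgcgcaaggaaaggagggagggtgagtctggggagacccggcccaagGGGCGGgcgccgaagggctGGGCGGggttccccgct
The Cdkn2c window shown, that of its upstream start, held 4 such boxes and the Cdkn2d window 5, whereas the window of the downstream Cdkn2c start held 0. The letters were present in 35.7% of all windows and in 9 of the 12 windows of the genes examined, so they are common to many promoters.

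Library facts bear on these genes in several ways. The recovered read totals were 10963178 to 22335233 in the control samples and 23532260 to 29523018 in the CNV d3 samples. Every control library was thus shallower than every CNV d3 library. Genes with reads numbered 15076 to 17224 in control and 18276 to 19116 at CNV d3. The methods describe cDNA amplified from picogram amounts of RNA, and the part of RNA input in control values of 0 was not tested. All control samples and CNV d3 replicates 1, 2 and 3 held Xist at 3116 normalized counts or more and at most 1 read of 4 Y-linked genes. CNV d3 replicates 4, 5 and 6 held 4077 to 5349 Y-linked reads and Xist at no more than 0.866 normalized counts, so the labelled groups also differ in sex-linked RNA, and the results for the 10 genes are given with and without these 3 samples. Microglial RNA was abundant in both groups, although 6 of 10 microglial markers fell and 1 rose. P2ry12, among those that fell, had 157959 to 214665 normalized counts in control and 44022 to 81084 at CNV d3 (log2 fold change -1.65). Of 9 monocyte and neutrophil genes, Ly6c2, Ccr2 and Plac8 rose. Ly6c2 was at 0 in all control samples and at only 1.73 to 25.1 normalized counts at CNV d3. None of the 10 listed photoreceptor genes passed the test, but their levels differed widely between libraries: Gnat1, which encodes the rod transducin, was highest in CNV d3 replicates 4 and 6 (4018 and 2780 normalized counts) and control replicate 3 (3064), against 96.0 in CNV d3 replicate 1. Of 8 endothelial and pericyte genes, Kdr rose (0.98, adjusted p 0.0452 by limma), Pecam1 fell (-1.46, adjusted p 0.0236), and Cspg4 went from at most 2.25 normalized counts in control to 95.2 to 356 at CNV d3. Pdgfrb and Rgs5 of the same list did not pass the test, with CNV d3 means of 2.92 and 1.25 normalized counts. They were at 0 in 4 and 5 of the 6 CNV d3 samples. Of 10 Mueller glia and astrocyte genes, Slc1a3 fell (-0.67, adjusted p 0.0208 by limma) and Dkk3 rose (3.81, adjusted p 0.0108). None of the 9 retinal pigment epithelium or 6 lymphocyte genes passed the test. The part of such cells in the results below was not tested.

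Of the 10 genes, 4 rose at CNV d3 and none fell by limma at an adjusted p below 0.05. The genes that rose were Cdkn2c, Cdkn2d, Cdkn1a and Ccng1, that is, 3 CDK inhibitor genes, of which Cdkn1a is also a p53 target, and the p53 target Ccng1. Over all 27299 genes, 2264 rose (8.29%) and 1247 fell (4.57%). The sample ranges did not overlap for 3 of the 10 genes, all higher in CNV d3 (Cdkn2c, Cdkn2d and Cdkn1a), against 4.64% of all genes higher and 2.83% lower without overlap. One of the 10, Cdkn2c, met the criterion for a differentially expressed gene (DEG, log2 fold change above 1.5 with adjusted p below 0.05), against 3.91% of all genes that were DEG in this direction. The median log2 fold change was 0.87 over the 10 genes and 0.15 over all genes. With edgeR on the recovered reads, the count of genes that rose was again 4 of 10, against 7.15% of all genes. After a filter on low values, which a gene can pass through 1 group alone, 9 of the 10 were kept and 6 were called higher, against 16.9% of the 12753 genes kept, and the 2 further calls were Ccnd2 and Ccnd3. With the 3 CNV d3 samples that lack Y-linked reads set against the 6 controls, 2 of the 10 genes were called, Cdkn2c and Cdkn2d, against 3.74% of all genes called higher in that fit.

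**Figure D1:**
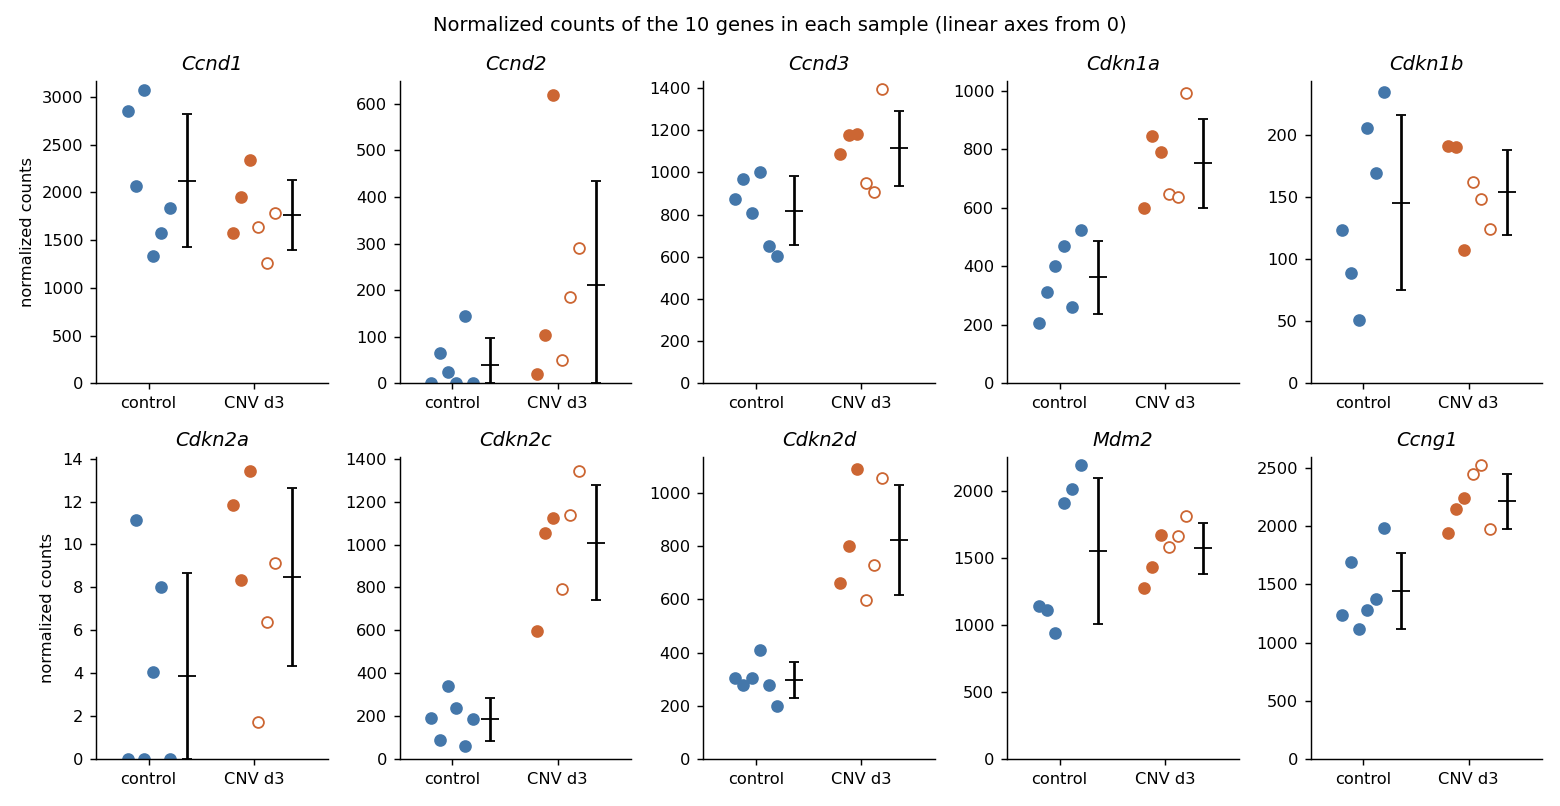
Normalized counts (vertical axes, linear and starting at 0) of the 10 genes in each of the 6 control (blue) and 6 CNV d3 samples (orange; open circles are the 3 samples with Y-linked reads), with black bars for mean ± SD, cut at 0. Cdkn1a, Cdkn2c and Cdkn2d show no overlap between groups, whereas Mdm2 and Cdkn1b lie within the control range in every CNV d3 sample.

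The D-type cyclins changed unevenly, and none of the 3 passed the limma test over all genes. Ccnd1 (ENSMUSG00000070348, chr7:144929931-144939925, minus strand), the gene of cyclin D1, ranged from 1333 to 3076 normalized counts in control (median 1952) and from 1264 to 2343 at CNV d3 (median 1711). The groups overlapped widely, and no CNV d3 sample lay above the control maximum. The log2 fold change was -0.23 (SE 0.20, 95% interval -0.67 to 0.20), with an adjusted p of 0.536 by limma. Exons of another gene, LTO1, cover 23.4% of the exon bases of Ccnd1, and reads from there cannot be assigned to either gene without strand. Whether such reads were counted or dropped was not checked, which also bears on the level of Ccnd1 per kb. Without the 3 samples holding Y-linked reads, the difference was -0.07.

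Ccnd2 (ENSMUSG00000000184, chr6:127125162-127152193, minus strand), encoding cyclin D2, was listed at 0 in 3 control samples and at 24.8, 65.8 and 145 normalized counts in the other three. In the CNV d3 samples its values were 19.2, 105, 618, 50.2, 185 and 291. Every CNV d3 sample lay above the control median of 12.4, and 3 of 6 lay above the control maximum. The log2 fold change of 3.97 had a wide interval (1.09 to 6.85) and an adjusted p of 0.069 by limma, and an exact permutation test of this single gene, two-sided, gave p = 0.039. When single samples were left out, this p stayed below 0.05 in 5 of 12 fits and was 0.0563 to 0.0801 in the other 7. The size depended on the pseudocount and the method, being 4.46 with 0.5 and 2.83 with 5 added to each value, 2.41 by edgeR (adjusted p 0.157) and 2.43 by DESeq2 (adjusted p 0.22). Without the 3 samples holding Y-linked reads it was 3.79, with an adjusted p of 0.402 by limma.

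Ccnd3 (ENSMUSG00000034165, chr17:47505051-47599691, plus strand), the gene of cyclin D3, ran from 602 to 1001 normalized counts in control (median 842) and from 907 to 1394 at CNV d3 (median 1132). All 6 CNV d3 samples exceeded the control median and 4 exceeded the control maximum. Its log2 fold change was 0.46 (SE 0.16, 95% interval 0.12 to 0.79). The adjusted p was 0.0727 by limma over all genes, 0.0223 by DESeq2 and 0.0683 by edgeR, so its call rests on the method. On simulated data, DESeq2 made more false calls than the other tools. The two-sided exact permutation test gave p = 0.0152, and the difference without the samples holding Y-linked reads was 0.51, with an adjusted p of 0.145 by limma.

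Lengths were those of all annotated exons joined, 4.709 kb for Ccnd1, 8.775 kb for Ccnd3 and 9.409 kb for Ccnd2. The transcripts present can be shorter, so shares between genes depend on this choice of length. Scaled to it, Ccnd1 held the largest share of D-type cyclin counts in every sample. It made up 81.2% ± 6.06 (SD, n = 6) of the summed D-type level per kb in control and 71.4% ± 3.34 (n = 6) at CNV d3. The share of Ccnd3 was 17.9% ± 5.92 in control and 24.6% ± 3.15 at CNV d3, and that of Ccnd2 0.872% ± 1.43 and 3.91% ± 3.38. All 3 shares overlapped between the groups. The mean log2 ratio of Ccnd1 to Ccnd3 counts was 1.34 ± 0.543 in control and 0.65 ± 0.232 at CNV d3, a difference of -0.69. A two-sided exact permutation test gave p = 0.0260, or 0.0404 adjusted over the 4 ratios tested. The ratio of Ccnd1 to Ccnd2 differed by -4.20 on the log2 scale (exact permutation p = 0.0303, adjusted 0.0404), and by -4.70 with a pseudocount of 0.5 and -3.06 with 5, since Ccnd2 was at 0 in 3 control samples. When single samples were left out, the Ccnd1 to Ccnd3 ratio passed the test in 6 of 12 fits and the Ccnd1 to Ccnd2 ratio in 5 of 12. The differences were -0.58 and -3.86 without the samples holding Y-linked reads.

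**Figure D2:**
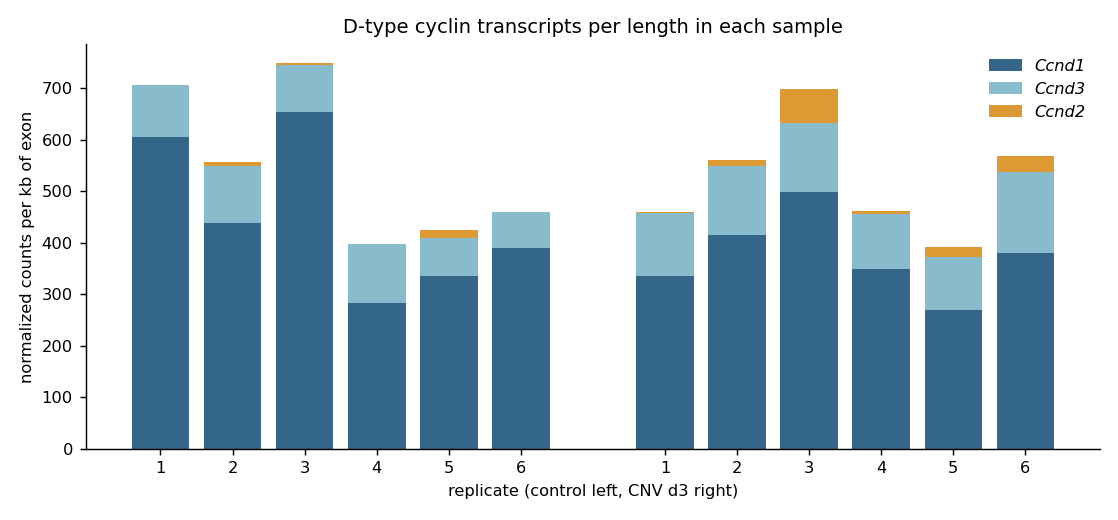
Normalized counts per kb of exon (vertical axis, from 0) of Ccnd1, Ccnd3 and Ccnd2 stacked for each of the 6 control samples (left) and 6 CNV d3 samples (right). Ccnd1 is the largest part of every bar (66.6% to 87.3%), and Ccnd2 is largest in CNV d3 replicate 3, at 9.42%.

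Among the Cip/Kip inhibitors, Cdkn1a rose and Cdkn1b did not pass the test. Cdkn1a (ENSMUSG00000023067, chr17:29090976-29100727, plus strand), the gene of p21 and a direct p53 target, had 205, 313, 401, 469, 260 and 524 normalized counts in the control samples. In the CNV d3 samples it had 599, 845, 790, 648, 636 and 994. The groups did not overlap, the lowest CNV d3 sample lying above the highest control sample. The rise was 2.15-fold on the log2(value + 1) scale (log2 fold change 1.10, SE 0.23, 95% interval 0.612 to 1.596), with an adjusted p of 0.00507 by limma. The two-sided exact permutation p was 0.00216, the smallest that 6 against 6 samples can give. Without the 3 samples holding Y-linked reads the log2 fold change was again 1.10, and the adjusted p was 0.0955 with 3 CNV d3 samples. The mean was 745 in these samples and 760 in the 3 with Y-linked reads.

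Cdkn1b (ENSMUSG00000003031, chr6:134920401-134925513, plus strand) encodes p27, a Cip/Kip inhibitor typical of resting cells. It ranged from 50.7 to 234 normalized counts in control (median 147) and from 107 to 191 at CNV d3 (median 155), so that every CNV d3 value lay within the control range. The log2 fold change was 0.22 (95% interval -0.54 to 0.99) with an adjusted p of 0.683 by limma, an interval that still holds changes of up to 1.99-fold upwards and down to 0.686-fold. Without the 3 samples holding Y-linked reads, the difference was 0.29. The mean log2 ratio of Cdkn1a to Cdkn1b was 1.41 ± 0.868 in control and 2.29 ± 0.527 at CNV d3. This difference of 0.88 missed the threshold (two-sided exact permutation p = 0.0671, adjusted over the 4 ratios 0.0671), and it was 0.81 without the samples holding Y-linked reads.

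The INK4 genes held the steepest rises among the genes called. Cdkn2c (ENSMUSG00000028551, chr4:109660876-109667189, minus strand), which encodes the CDK4 and CDK6 inhibitor p18, had 189, 89.1, 342, 237, 59.2 and 187 normalized counts in the control samples. At CNV d3 the values were 597, 1056, 1124, 793, 1137 and 1346. Even the lowest CNV d3 sample, replicate 1, was well above the highest control sample, replicate 3. The rise was 6.16-fold (log2 fold change 2.62, SE 0.37, 95% interval 1.84 to 3.41), with an adjusted p of 0.000308 by limma and a two-sided exact permutation p of 0.00216. Restricted to the CNV d3 samples without Y-linked reads, it was 2.49, with an adjusted p of 0.0412 by limma.

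Cdkn2d (ENSMUSG00000096472, chr9:21288410-21291407, minus strand) encodes p19, another inhibitor of CDK4 and CDK6. Its control values were 305, 279, 304, 408, 279 and 201 normalized counts, and its CNV d3 values 661, 800, 1092, 599, 727 and 1056. Again no CNV d3 sample fell into the control range. The rise was 2.76-fold (log2 fold change 1.47, SE 0.20, 95% interval 1.04 to 1.89), with the lowest adjusted p of the 10 genes, 0.00026 by limma, and it fell just short of the DEG criterion on size. Restricted to the CNV d3 samples without Y-linked reads, it was 1.52, with an adjusted p of 0.00887 by limma.

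Cdkn2a (ENSMUSG00000044303, chr4:89274471-89294653, minus strand), a gene whose alternative first exons give p16 and ARF, was close to the detection limit. It held 23 reads over the 6 control libraries and 62 over the deeper CNV d3 libraries. Its normalized counts ran from 0 to 11.1 in control, with 3 samples at 0, and from 1.73 to 13.4 at CNV d3. The groups overlapped, and the log2 fold change of 1.55 had an interval from -0.25 to 3.35 and an adjusted p of 0.281 by limma. By edgeR the log2 fold change was 1.09, with an adjusted p of 0.528. It was 2.07 without the samples holding Y-linked reads, with an adjusted p of 0.347. Counts per gene do not separate the transcripts of p16 and ARF, so a change in either was not tested.

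Cdkn2c was on average lower than Cdkn2d in control and higher than it in 5 of 6 CNV d3 samples when counts without scaling to length were taken. The mean log2 ratio of Cdkn2c to Cdkn2d was -0.88 ± 0.908 in control and 0.28 ± 0.285 at CNV d3, a difference of 1.16 (two-sided exact permutation p = 0.0108, adjusted over the 4 ratios 0.0404). The ratios overlapped between groups, and the call was kept in 7 of 12 fits that left out 1 sample. Without the samples holding Y-linked reads the difference was 0.97. Per kb of exon Cdkn2d stayed above Cdkn2c in both groups, at 188 ± 42.5 against 68.5 ± 38.2 normalized counts per kb in control and 523 ± 131 against 376 ± 100.1 at CNV d3.

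The genes of cell division rose in the same samples. All 10 listed genes, including Top2a, Mcm5 and Pcna, passed the limma test, with a median log2 fold change of 5.36, against 0.15 over all genes. Their sum was 1549 to 3067 normalized counts in control and 12635 to 25929 at CNV d3. Within the CNV d3 group, replicate 1 was lowest and replicate 6 highest for both this sum and Cdkn2c, and the order of the 6 samples differed only by an exchange of replicates 3 and 5. Cdkn2d was highest in replicates 3 and 6, the 2 samples with the highest sum. These orders were not tested.

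**Figure D3:**
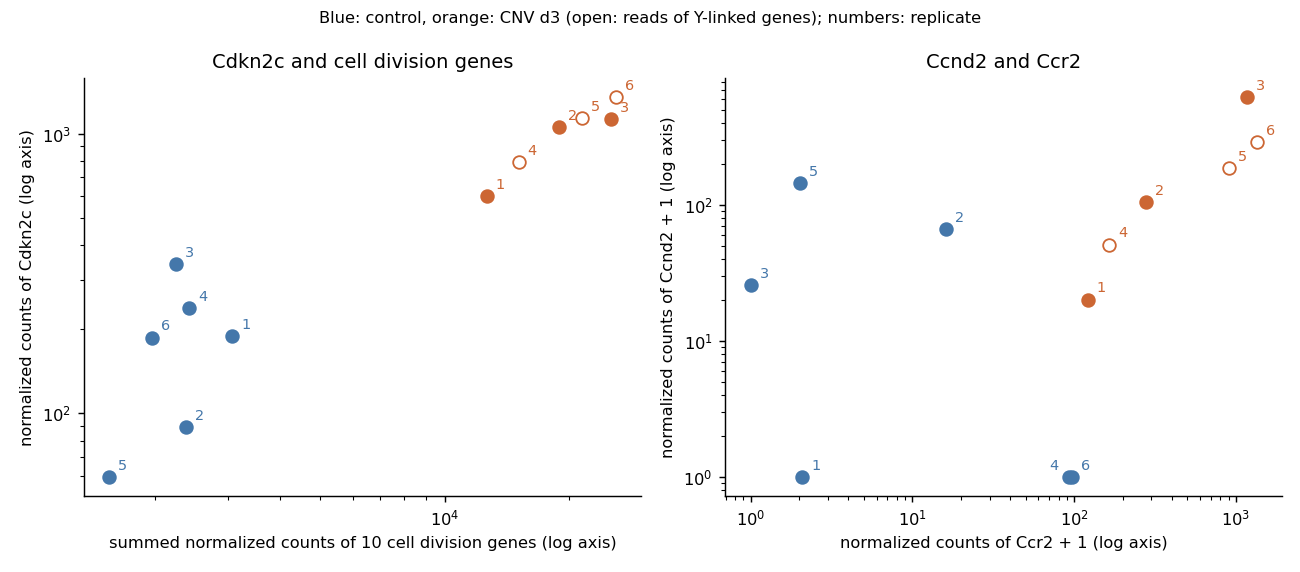
Left, normalized counts of Cdkn2c against the summed counts of 10 cell division genes; right, normalized counts + 1 of Ccnd2 against those of Ccr2, all on log axes, 1 point per sample (blue control, orange CNV d3, open with Y-linked reads, numbers are replicates). CNV d3 replicate 1 is lowest in all 4 measures within its group, while 3 control samples lie at 0 for Ccnd2.

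Relative to its mean, Ccnd2 had the largest SD of the 10 genes among the CNV d3 samples, and its order there resembled that of Ccr2, the chemokine receptor of inflammatory monocytes, which was singled out after its values were seen. Ccr2 had 120, 278, 1162, 163, 910 and 1351 normalized counts in CNV d3 replicates 1 to 6 and at most 95.3 in control. Replicates 3, 5 and 6 were the 3 highest for both genes. Other genes of the monocyte and neutrophil list had other orders. Plac8 and Ly6c2 were highest in replicates 3 and 6 but not among their highest in replicate 5 (503 and 7.21 normalized counts). Csf3r was lowest in replicate 3, at 4939, where Ccnd2 was highest. In control, Ccnd2 was highest in replicate 5, where Ccr2 was at 1.00, and it was at 0 in the control samples highest in Ccr2, replicates 4 and 6. The summed level of the 9 monocyte and neutrophil genes was 9140 to 11643 in control and 7606 to 11140 at CNV d3, most of it from Csf3r. The sort was gated to Ly6C- Ly6G- cells, which would remove monocytes high in Ly6C, and the part of other myeloid cells in the Ccnd2 values was not tested.

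Of the p53 targets, Ccng1 rose and Mdm2 did not pass the test. Ccng1 (ENSMUSG00000020326, chr11:40748552-40755311, minus strand), which encodes cyclin G1, had 1235, 1694, 1116, 1283, 1371 and 1982 normalized counts in control. Its CNV d3 values were 1942, 2149, 2241, 2446, 2527 and 1976. The groups overlapped through control replicate 6, and 4 of 6 CNV d3 samples exceeded the control maximum. The rise was 1.55-fold (log2 fold change 0.64, SE 0.14, 95% interval 0.34 to 0.94), with an adjusted p of 0.00739 by limma and a two-sided exact permutation p of 0.00649. Without the 3 samples holding Y-linked reads it was 0.57, with an adjusted p of 0.125 by limma.

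Mdm2 (ENSMUSG00000020184, chr10:117688875-117710758, minus strand), the gene of the ubiquitin ligase that acts on p53, had 1138, 1111, 941, 1907, 2010 and 2190 normalized counts in control. These fall into a lower set, replicates 1 to 3, and a higher set, replicates 4 to 6, whereas the CNV d3 samples lay between 1274 and 1809. The log2 fold change was 0.09 (95% interval -0.35 to 0.52), with an adjusted p of 0.786 by limma, and the interval leaves room for 0.786-fold to 1.44-fold. The sign turned, to -0.02, without the samples holding Y-linked reads.

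Levels per kb of exon gave an order of the 10 genes, which depends on the same lengths of joined exons. In control the order of the means was Ccnd1 (451 ± 149 normalized counts per kb), Ccng1 (412 ± 93.1), Mdm2 (305 ± 107), Cdkn2d, Cdkn1a, Ccnd3, Cdkn2c, Cdkn1b, Ccnd2 and Cdkn2a (3.30 ± 4.09), and each gene overlapped with the next in its sample range. At CNV d3 the order was Ccng1 (630 ± 68.2), Cdkn2d (523 ± 131), Cdkn2c, Ccnd1 (374 ± 78.0), Mdm2, Cdkn1a, Ccnd3, Cdkn1b, Ccnd2 and Cdkn2a (7.24 ± 3.54). There, only Cdkn1a and Ccnd3, and Ccnd3 and Cdkn1b, were neighbours whose ranges did not overlap. Cdkn2c went from rank 7 to rank 3 and Ccnd1 from rank 1 to rank 4.

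Among the other G1 factors, the cyclin E genes and Cdk4 rose. Of 10 listed kinases, cyclins, inhibitors and RB family genes, 3 rose and none fell, against 8.29% and 4.57% of all genes, with a median log2 fold change of 0.75. Ccne1, the gene of cyclin E1, the partner of CDK2, went from at most 5.96 normalized counts in control to 266 to 420 at CNV d3 (log2 fold change 7.53, adjusted p 1.01e-05 by limma). Ccne2, encoding cyclin E2, went from 3.01 to 226 in control to 445 to 795 (3.80, adjusted p 0.00808 by limma). Cdk4, the catalytic partner of the D-type cyclins, rose from 1670 ± 333 to 2814 ± 334 (SD, n = 6 each), a log2 fold change of 0.77 with an adjusted p of 0.00178 by limma. All 3 had no overlap between the groups, whereas Cdk6, the other partner of the D-type cyclins, had a log2 fold change of -0.15 (95% interval -0.51 to 0.21). Cdkn1c, encoding the Cip/Kip inhibitor p57, had 40.5 to 288 normalized counts in control and 34.9 to 90.1 at CNV d3, every CNV d3 sample lying below the control median. Its log2 fold change of -1.14 (95% interval -2.10 to -0.19) had an adjusted p of 0.117 by limma. As for Ccnd1, exons of other genes cover part of the exon bases of Cdk4 (19.73%), Ccne2 (17.42%) and Cdkn1c (30.65%). Without the samples holding Y-linked reads, Ccne1 (7.55, adjusted p 0.00322 by limma) and Cdk4 (0.85, adjusted p 0.0318) were called, and Ccne2 was at 3.67 with an adjusted p of 0.193.

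**Figure D4:**
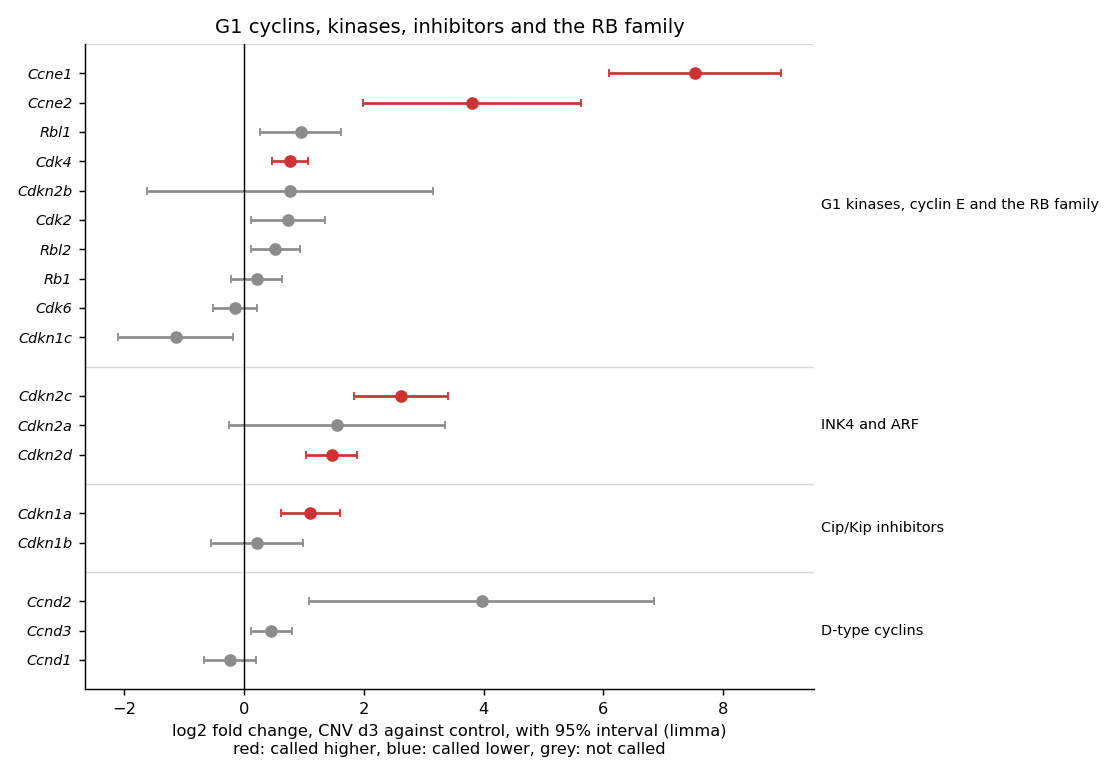
Log2 fold changes at CNV d3 against control (horizontal axis) with 95% intervals from limma for the D-type cyclins, the Cip/Kip and INK4 genes and the 10 other G1 genes; red marks genes called higher, blue lower and grey neither. Ccne1 and Ccne2 lie farthest to the right among the called genes (7.53 and 3.80), and no gene is called lower.

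The gene of p53 itself fell. Trp53 had 1826 to 2822 normalized counts in control and 1254 to 1643 at CNV d3, without overlap, a log2 fold change of -0.75 (SE 0.12) with an adjusted p of 0.000903 by limma. Of the 8 genes for p53 and its regulators, 1 more passed the test, Chek2, encoding a kinase that acts on p53 after DNA damage, which rose by 1.20 on the log2 scale (adjusted p 0.024 by limma) with overlapping groups. Mdm4, whose protein pairs with MDM2, had a log2 fold change of 0.01 (95% interval -0.36 to 0.38). Without the samples holding Y-linked reads, the log2 fold change of Trp53 was -0.69 (adjusted p 0.0393 by limma) and that of Chek2 1.23 (adjusted p 0.216).

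Most other p53 targets did not pass the test. Over all genes, 8.29% were called higher and 4.57% lower, and a difference of the target list from these shares was not tested. Of 22 listed targets, 3 rose, 2 fell and 17 did not pass, with a median log2 fold change of 0.64. Those that rose were Bax, a pore-forming protein of apoptosis (log2 fold change 0.49, adjusted p 0.00916 by limma), Ei24 (0.48, adjusted p 0.00608) and the kinase gene Plk2 (4.75, adjusted p 0.0275). Exons of another gene cover 12.18% of the exon bases of Bax. Those that fell were Btg2, an antiproliferative gene (-0.80, adjusted p 0.00174 by limma), and Rrm2b, the p53-inducible subunit of ribonucleotide reductase (-0.96, adjusted p 0.00722). Without the samples holding Y-linked reads, Bax (0.53, adjusted p 0.0122 by limma) and Ei24 (0.53, adjusted p 0.0164) were called, while Plk2 (5.29), Btg2 (-0.71) and Rrm2b (-0.82) kept their direction and missed the threshold. Beside the rises of Cdkn1a and Ccng1, Trp53 was lower, Chek2 was higher, Mdm2 did not pass the test, and of the other targets 3 rose and 2 fell. The part of p53 in these changes was not tested.

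**Figure D5:**
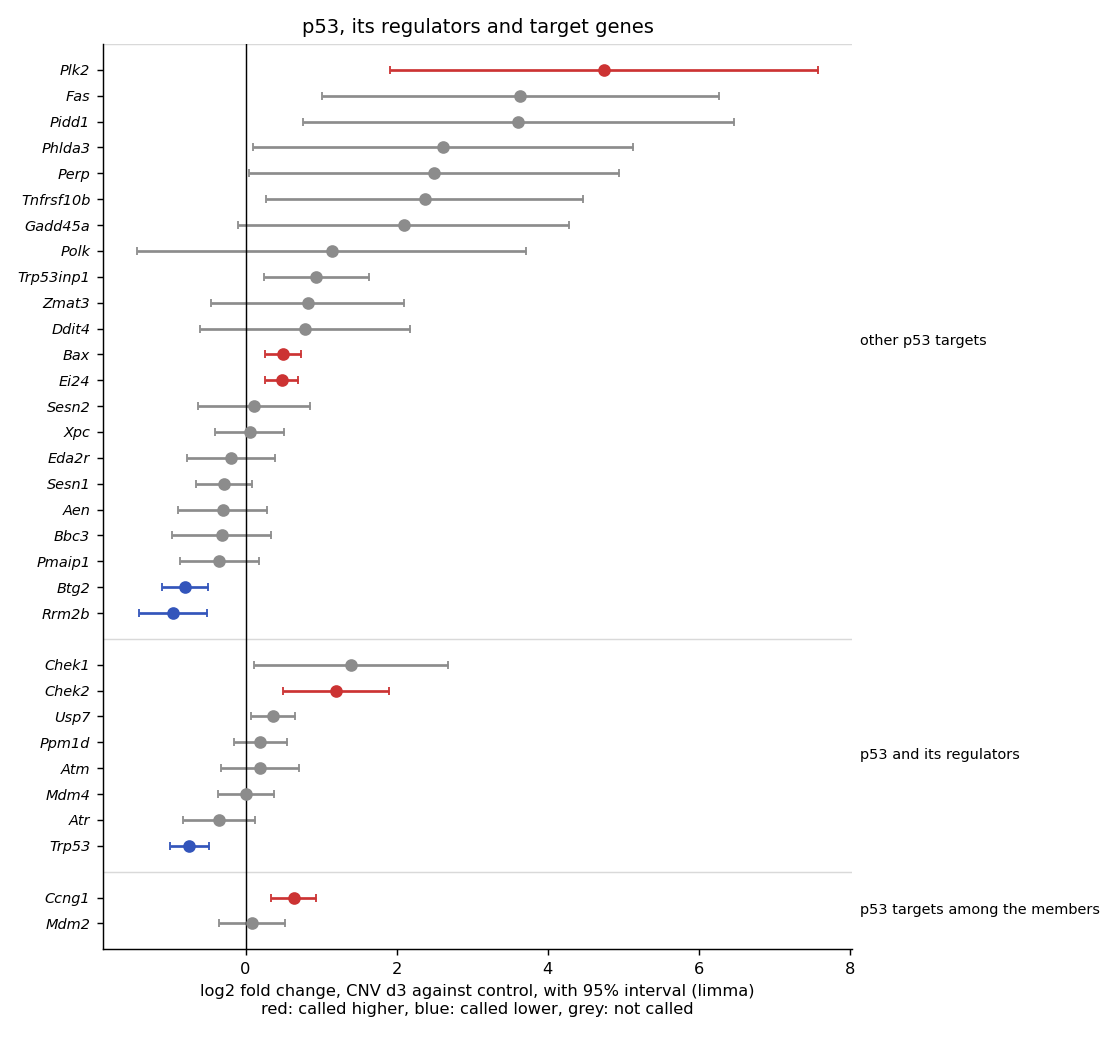
Log2 fold changes at CNV d3 against control (horizontal axis) with 95% intervals from limma for Mdm2 and Ccng1, for p53 and its regulators, and for 22 other p53 targets; red marks genes called higher, blue lower and grey neither. Trp53, Btg2 and Rrm2b are the genes called lower (-0.75, -0.80 and -0.96), and the widest intervals belong to genes at 0 in some control samples.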

How the data were processed

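Per the labels and the submitters' processing notes, reads of 12 samples (listed as 19 entries, since the controls and CNV d3 replicate 4 appear in 2 parts each) were checked with FastQC (0.72), aligned with STAR (2.7.2b) to GRCm38.p6, counted against Gencode M25 with featureCounts (1.6.4) and normalized in R (3.5.3) with DESeq2 (1.22.2). The signal values deposited by the authors are counts per gene divided by a size factor for each sample. Group means, fold changes and adjusted p-values of the authors in the same table were not used. All values came out as whole multiples of 1 read (100%, tolerance 1e-06), which gave back the reads. The main test was limma (3.58.1, R 4.3.3) on log2(value + 1) over all 27299 genes with Benjamini-Hochberg adjustment, so that fold changes are on that scale and those of genes with values of 0 depend on the pseudocount. Added tests were edgeR (4.0.16, quasi-likelihood) on the recovered reads, which called 1952 genes higher, DESeq2 (1.42.0), voom, other pseudocounts (0.5 and 5), a filter (10 normalized counts in 6 samples), other scalings and leaving out each sample. Thinning to 10963178 reads and the comparison without samples holding Y-linked reads were chosen after the data had been seen. The scripts were tested on simulated data, on which DESeq2 made more false calls than the other tools. Read totals set the counting error only, and losses of RNA before sequencing were not measured. Exon overlaps and lengths came from Gencode M21, and featureCounts was taken as not using strand. The 10 genes and all lists were chosen with earlier results of these data known. All 10 genes are named, and from each pathway list the genes called at an adjusted p below 0.05, at most 6 by p; marker and cell division lists are given by counts with up to 3 genes of highest mean level. Genes named beyond this rule (Ly6c2, Cdk6, Cdkn1c, Mdm4, Dkk3, Pdgfrb, Rgs5) were chosen after their values were seen. Same-numbered samples of both groups did not deviate together. Values of some marker genes are not reported here.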

Additional observations from a re-analysis of the deposited data

How the results depend on the processing

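The 4 genes called higher kept their direction and their call under every scaling, pseudocount, filter, tool and thinned fit and in all 12 fits that left out 1 sample. With only the 3 CNV d3 samples lacking Y-linked reads, a fit with fewer samples, 2 of the 10 genes were called, and over all genes 1022 were higher, 540 lower, 524 DEG higher and 166 DEG lower (limma), while Mdm2 turned to -0.02. DESeq2 called 2170 genes lower and 572 DEG lower and voom 489 DEG lower, against 1247 and 293 by limma; the cause was not tested. Leaving out 1 sample gave 1737 to 2319 genes higher, 1022 to 1455 lower, 829 to 1041 DEG higher, 237 to 358 DEG lower and 4 to 5 of the 10 genes. It moved the log2 fold change of Ccnd2 between 3.37 and 4.81, of Cdkn2a between 1.25 and 1.97, of Cdkn1b between -0.043 and 0.39 and of Mdm2 between -0.040 and 0.20, the last pair changing sign without control replicate 3. The ratios moved between -5.11 and -3.50 (Ccnd1 to Ccnd2), -0.87 and -0.57 (Ccnd1 to Ccnd3), 0.72 and 1.19 (Cdkn1a to Cdkn1b) and 0.89 and 1.37 (Cdkn2c to Cdkn2d). The replicate numbers did not pair the samples (correlations of same-numbered deviations from -0.019 to 0.051). With the replicate block, the number called was 5, against 6.91% of all genes called higher in that fit, adding Ccnd2 (adjusted p 0.0343 by limma) and changing no other call among them, and the ratios of -4.20, -0.69 and 1.16 lost their calls (adjusted exact permutation p 0.0833, 0.0938 and 0.0833). Cdkn2a had 23 reads over the 6 control libraries, so its counting error is large.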

Other observations

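Letters of other factors were searched in the same promoter windows, on both strands, as values that belong to no comparison. The E2F letters TTTCCCGC, TTTCGCGC, TTTGCCGC or TTTGGCGC occurred in 2.26% of the 32851 windows and in 1 of the 12 windows of the genes examined, the upstream window of Cdkn2a. The AP-1 letters TGAGTCA or TGACTCA occurred in 5.20% of windows and in 0 of the 12, and the CRE letters TGACGTCA in 1.79% and 0 of the 12. These counts concern letters within 300 bases only.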
